A study of Homo sapiens with 10 samples.

Results

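The genes described here encode 6 kinases of splicing factors, CLK1, CLK2, CLK3, CLK4, SRPK1 and SRPK2, together with the related kinase DYRK1A and the splicing factors TRA2A and TRA2B. They were selected by symbol and made up 9 of the 28380 rows of the count table, and every one of them had enough counts to be tested. RPE-1 is an established, telomerase-immortalized line of human retinal pigment epithelial cells. In this experiment, 50000 cells per replicate were given 25 µM sulforaphane (SFN), an isothiocyanate from cruciferous vegetables, or its vehicle DMSO for 4 h, with 5 replicates of each treatment. The transcriptome was then sequenced to ask how SFN acts on the transcriptional landscape of cells in complete medium, and both groups were of the same line with no other agent or genetic change. Because the 9 genes were selected with their response to SFN in these libraries known, all SFN and DMSO values of these genes are given as a description and none of them is tested.

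SR proteins are splicing factors with long runs of arginine and serine, and the phosphorylation of these runs governs where the proteins sit in the cell and how they choose splice sites. SRPK1 and SRPK2 phosphorylate SR proteins mainly in the cytoplasm and thereby promote their import into the nucleus. The CLK kinases, named for their likeness to CDC2, add further phosphates in the nucleus and release SR proteins from nuclear speckles. CLK1 and CLK4 are also known for transcripts that keep introns in the nucleus and can be spliced to completion when a cell is stressed. TRA2A and TRA2B are SR-like activators of exon inclusion and are substrates of these kinases.

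The promoters of 4 of the 5 genes whose SFN and DMSO libraries did not overlap are shown first, because the 2 that were higher with SFN (CLK1 and CLK4) and the 2 that were lower (CLK2 and TRA2B) can then be read side by side. Each line gives the 250 bases before the annotated start, 5′ to 3′ on the gene's strand, from RefSeq on GRCh38.p14. They lie at chr2:200864659-200864908 for CLK1, chr5:178627051-178627300 for CLK4, chr1:155273505-155273754 for CLK2 and chr3:185938015-185938264 for TRA2B, all on the minus strand. The gene positions given further below are from GENCODE 44, where some genes start further upstream than in RefSeq. The windows of CLK4 and CLK2 lie wholly inside those GENCODE positions, and the windows of CLK1 and TRA2B in part. Capitals mark matches, on either strand, to 6 motifs of stress-related factors.
CLK1: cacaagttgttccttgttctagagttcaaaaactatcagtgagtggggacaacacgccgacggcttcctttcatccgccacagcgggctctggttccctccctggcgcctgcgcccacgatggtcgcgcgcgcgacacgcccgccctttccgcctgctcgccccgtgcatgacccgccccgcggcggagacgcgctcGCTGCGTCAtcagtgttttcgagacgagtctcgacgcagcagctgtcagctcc
CLK4: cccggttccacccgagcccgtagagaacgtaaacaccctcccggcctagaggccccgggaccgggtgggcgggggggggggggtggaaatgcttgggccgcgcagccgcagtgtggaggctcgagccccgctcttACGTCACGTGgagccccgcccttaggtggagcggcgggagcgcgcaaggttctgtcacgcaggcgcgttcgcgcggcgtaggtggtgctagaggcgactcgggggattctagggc
CLK2: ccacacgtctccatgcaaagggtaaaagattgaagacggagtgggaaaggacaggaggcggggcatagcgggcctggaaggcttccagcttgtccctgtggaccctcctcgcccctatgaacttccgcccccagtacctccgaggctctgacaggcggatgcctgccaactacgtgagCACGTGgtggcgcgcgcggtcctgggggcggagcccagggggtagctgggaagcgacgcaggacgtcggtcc
TRA2B: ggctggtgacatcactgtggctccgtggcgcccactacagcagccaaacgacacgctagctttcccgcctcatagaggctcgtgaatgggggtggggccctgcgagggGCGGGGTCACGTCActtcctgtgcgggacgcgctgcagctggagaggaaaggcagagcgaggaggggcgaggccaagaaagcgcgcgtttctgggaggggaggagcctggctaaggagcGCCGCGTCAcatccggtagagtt
The motifs searched were the core of the antioxidant response element bound by NRF2 (TGACNNNGC), 2 forms of the heat shock element (GAANNTTC and TTCNNGAA), the short cAMP response element (TGACGT), the amino acid response element (TGATGNAA) and the E-box of the CLEAR network (CACGTG). CLK1 held 1 match, to the antioxidant core, beginning 53 bases before the start. The other RefSeq start of CLK1 showed the same site. CLK4 held a cAMP element and an E-box that overlapped each other, beginning 115 and 111 bases before the start, and CLK2 held 1 E-box, 72 bases before the start. TRA2B held 2 antioxidant cores and 1 cAMP element, which overlapped the first of these cores. Among 35116 promoter windows of the same length, 10.9% held the antioxidant core, 7.10% the cAMP element, 6.34% the E-box and 3.14% the amino acid element, while the heat shock forms were in 5.78% and 6.62%. Neither heat shock form was found in the windows shown. Of the other genes, a window of CLK3 held an antioxidant core with the same letters as that of CLK1, 48 bases before the start, and DYRK1A and SRPK2 held matches in some of their windows. The window of SRPK1, whose libraries did not overlap either, held no match to the 6 motifs. The windows were GC-rich, at 64.4% for CLK1, 71.2% for CLK4, 65.2% for CLK2 and 65.6% for TRA2B against a median of 58.0% over all windows. The promoter table used here matched 8 of the 9 genes, all but TRA2A.

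The total count per library ranged from 12375860 to 20666692, and levels are given as CPM, the share of a library's counts taken by a gene on a per-megacount scale after TMM normalization. The lowest count of any of the 9 genes in a library was 131, for CLK2. The counts are given per gene, so neither the exons included nor retained introns could be seen. The methods name QuantSeq, taken here as libraries of 3′ ends, which count transcripts and not exons. The labels mention only standard Illumina preparation. DMSO replicate 1 stood apart, with a mean Spearman correlation across genes of 0.935 with the other DMSO replicates against at least 0.979 for each of those, so results are also given without it. Of 13 markers of retinal pigment epithelium in culture, 12 had a row and 6 reached 5 CPM in DMSO (BEST1, MITF, OTX2, KRT8, KRT18 and VIM). RPE65, RLBP1, TYRP1, SERPINF1 and TTR had at most 4 counts in any library. Markers of other cell types reached at most 9 counts in a library (3 of 7 had a row). The summed level of the 12 epithelium-in-culture markers was 6030 to 6990 CPM in DMSO and 6330 to 9560 CPM in SFN. Most of it was VIM, so the sum does not show the other markers, whose means differed in both directions. The mean of BEST1 was 18.8 CPM in DMSO and 42.4 CPM in SFN, and KRT8 and KRT18 were also higher with SFN. MITF was at 50.8 CPM in DMSO and 23.4 CPM in SFN, and OTX2 was also lower. The part of these markers in the values below was not tested.

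CLK1 and CLK4 were higher with SFN, and CLK2, TRA2B and SRPK1 were lower, SRPK1 by an amount that depended on DMSO replicate 1. CLK3 and DYRK1A lay at similar levels in both groups. The values of SRPK2 and TRA2A also depended on DMSO replicate 1. The groups did not overlap for 5 of the 9 genes (19.9% of all 13378 genes tested had no overlap), 2 with SFN higher (8.78% of all genes) and 3 with SFN lower (11.1% of all genes). In the edgeR fit 4 of the 9 passed the 0.05 threshold, 2 with SFN higher and 2 lower, where 23.0% of all genes tested passed it, 9.07% with SFN higher and 13.9% lower. Without DMSO replicate 1 the fit passed 5 of the 9, 2 higher and 3 lower, where 46.1% of all genes passed, 22.5% higher and 23.5% lower. Over 18 alternative fits TRA2B passed in 11 and SRPK1 in 3, so the number that passed depended on the settings. The genes were selected on this contrast, so nothing is read from these counts. The median log2 fold change over the 9 genes was -0.33 with all libraries and -0.12 without DMSO replicate 1, and that of all genes tested was -0.028 and -0.003. In such bulk samples a lower level in each cell and fewer cells that hold the transcript cannot be told apart.

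**Figure D1:**
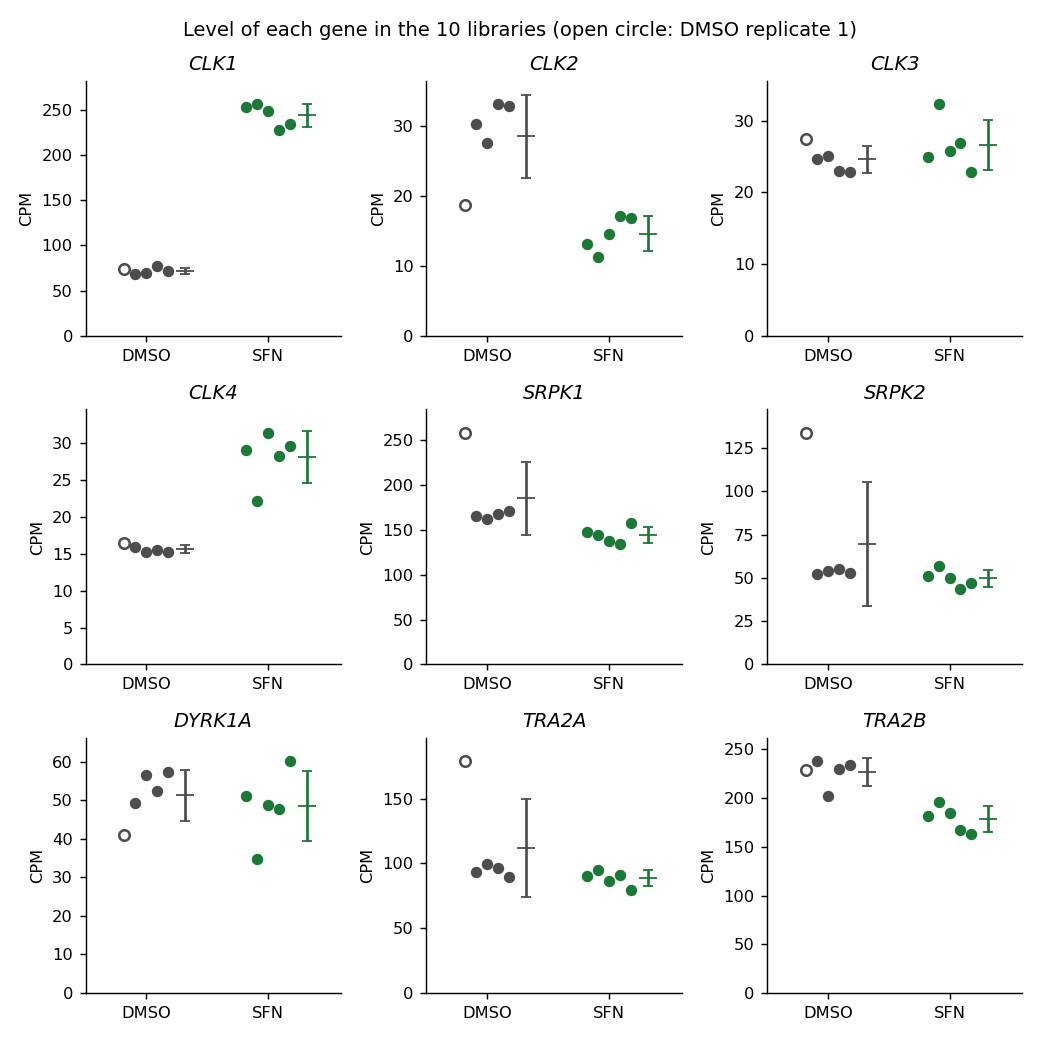
Level in CPM (vertical axes, each from 0) of each of the 9 genes in the 5 DMSO (grey) and 5 SFN (green) libraries, with the mean and SD beside the points; the open circle is DMSO replicate 1. The SFN libraries lay at 227 to 256 CPM for CLK1 against 68.2 to 76.9 in DMSO, whereas DMSO replicate 1 was far above the other DMSO libraries for SRPK1, SRPK2 and TRA2A.

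CLK1 (chromosome 2 of GRCh38, 200853009 to 200864691, minus strand, ENSG00000013441) is the founding member of the CLK family. Its level was 73.5, 68.2, 69.4, 76.9 and 72.3 CPM in DMSO replicates 1 to 5 and 253, 256, 248, 227 and 234 CPM in SFN replicates 1 to 5. Every SFN library thus lay far above every DMSO library, DMSO replicate 1 included. The means were 72.0 ± 3.43 CPM (SD, n = 5) in DMSO and 243 ± 12.5 CPM (SD, n = 5) in SFN, a 3.38-fold difference (log2 fold change 1.76, standard error 0.09). This log2 fold change lay at percentile 98.7 of all genes tested and stayed between 1.74 and 1.78 when each library was left out in turn.

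CLK4 (chromosome 5, 178602664 to 178630615, minus strand, ENSG00000113240), the closest relative of CLK1, had the lowest CPM of the 9 genes in DMSO. It was at 16.4, 15.9, 15.2, 15.5 and 15.2 CPM in DMSO replicates 1 to 5 and at 29.1, 22.1, 31.4, 28.3 and 29.6 CPM in the SFN replicates. All SFN libraries were above all DMSO libraries, and SFN replicate 2 was the lowest of them. From 15.6 ± 0.535 CPM (SD, n = 5) in DMSO and 28.1 ± 3.56 CPM (SD, n = 5) in SFN, the difference was 1.80-fold (log2 fold change 0.85, standard error 0.11), between 0.80 and 0.93 on the log2 scale with each library left out.

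CLK2 (chromosome 1, 155262868 to 155278491, minus strand, ENSG00000176444) differed in the opposite direction. It was at 18.7, 30.3, 27.5, 33.1 and 32.9 CPM in DMSO replicates 1 to 5 and at 13.2, 11.3, 14.5, 17.2 and 16.8 CPM in the SFN replicates. The groups did not overlap, although DMSO replicate 1 was the lowest DMSO library and came close to the highest SFN library. Averages of 28.5 ± 5.94 CPM (SD, n = 5) and 14.6 ± 2.47 CPM (SD, n = 5) gave a log2 fold change of -0.96 (standard error 0.18), and -1.08 (standard error 0.12) without DMSO replicate 1, where the DMSO mean was 30.9 ± 2.62 CPM. The gene lies beside SCAMP3 on the same strand, which was at 22.7 CPM in DMSO and 32.4 CPM in SFN, and overlaps HCN3 on the other strand by 1.03 kb, which had at most 59 counts in a library.

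CLK3 (chromosome 15, 74598500 to 74645414, plus strand, ENSG00000179335) showed no such separation. It was at 27.5, 24.6, 25.1, 23.0 and 22.8 CPM in DMSO and at 25, 32.3, 25.8, 26.9 and 22.9 CPM in SFN. The 2 groups covered much of the same range, with SFN replicate 2 the highest library. DMSO averaged 24.6 ± 1.90 CPM (SD, n = 5) and SFN 26.6 ± 3.49 CPM (SD, n = 5), a log2 fold change of 0.11 (standard error 0.12). CLK3 shares 14.9 kb with EDC3 on the opposite strand, which was at 22.1 CPM in DMSO and 17.7 CPM in SFN. As the use of strand in counting is not given in the sources used here, reads of such overlapping genes may not be told apart.

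**Figure D2:**
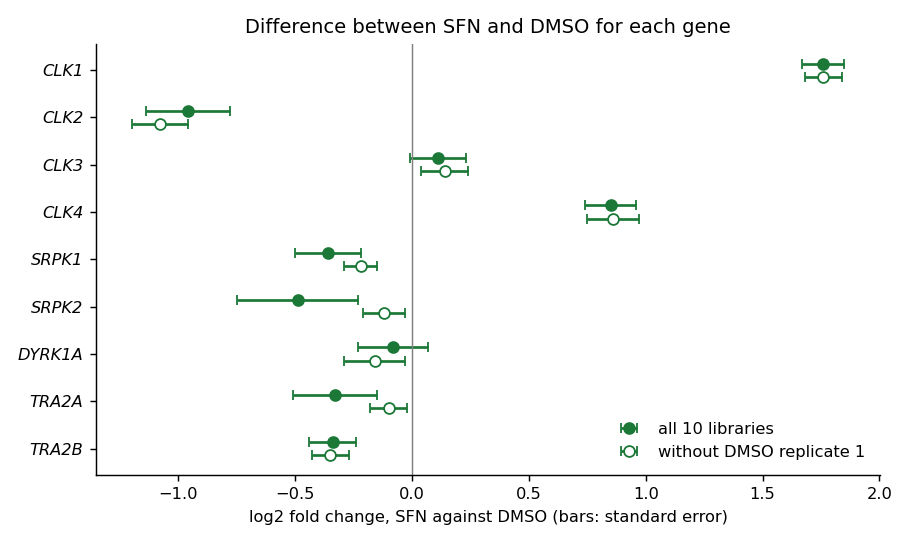
Log2 fold change of SFN against DMSO (horizontal axis, bars are standard errors) for each of the 9 genes, with all 10 libraries (filled) and without DMSO replicate 1 (open). CLK1 stayed at 1.76 in both fits, whereas SRPK2 was at -0.49 and -0.12 and TRA2A at -0.33 and -0.10.

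As CLK1 and CLK2 differed in opposite directions, the makeup of the CLK counts within each library was compared, which does not depend on the scaling between libraries. CLK1 held 51.2 ± 1.83% (SD, n = 5) of the counts of the CLK genes in DMSO and 77.8 ± 1.5% (SD, n = 5) in SFN. The share of CLK2 was 20.2 ± 3.76% in DMSO and 4.70 ± 0.942% in SFN, that of CLK3 17.5 ± 1.90% and 8.49 ± 1.02%, and that of CLK4 11.1 ± 0.658% and 9.01 ± 1.23%. The shares of a library add up to the whole, so they are not separate results, and a higher CLK1 count lowers the others. CLK3 thus took a smaller share in SFN although its own level was similar in both groups. CLK4 also took a smaller share in SFN although its own level was higher. There were 2.65 ± 0.730 CLK1 counts for each CLK2 count in DMSO and 17.2 ± 3.87 in SFN, and 4.61 ± 0.256 and 8.81 ± 1.58 for each CLK4 count. Without DMSO replicate 1, the DMSO ratio of CLK1 to CLK2 was 2.32 ± 0.141.

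The summed level of the CLK genes was 141 ± 5.09 CPM (SD, n = 5) in DMSO and 313 ± 10.5 CPM (SD, n = 5) in SFN. With CLK1 left out, the sum of CLK2, CLK3 and CLK4 was 68.8 ± 3.72 CPM in DMSO and 69.3 ± 2.85 CPM in SFN, with overlapping groups. The higher total in SFN was therefore that of CLK1, while lower CLK2 and higher CLK4 counts were of similar size. No stretch of 50 bases was shared between transcripts of any of the 36 pairs of the 9 genes in GENCODE 44, and the pseudogene row CLK2P1 had at most 2 counts in a library.

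**Figure D3:**
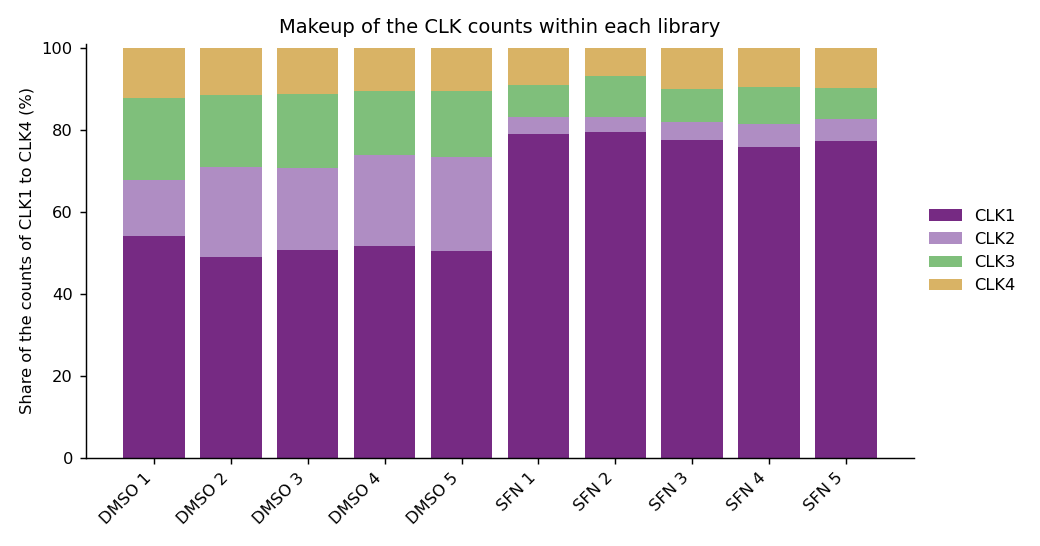
Share in percent (vertical axis) of CLK1, CLK2, CLK3 and CLK4 among their summed counts in each of the 10 libraries (bars). CLK1 takes 49.1% to 54.0% in DMSO and 75.8% to 79.6% in SFN, and CLK2 takes 3.52% to 5.75% in SFN.

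SRPK1 (chromosome 6, 35832966 to 35921342, minus strand, ENSG00000096063) was at 258, 165, 162, 168 and 171 CPM in DMSO replicates 1 to 5 and at 147, 144, 137, 134 and 157 CPM in the SFN replicates. All SFN libraries were below all DMSO libraries, but DMSO replicate 1 was 1.55 times the mean of the other DMSO libraries. The log2 fold change was -0.36 (standard error 0.14) with all libraries and -0.22 (standard error 0.07) without DMSO replicate 1. The means were 185 ± 41.2 CPM (SD, n = 5) in DMSO, 167 ± 3.84 CPM (SD, n = 4) without that replicate, and 144 ± 8.99 CPM (SD, n = 5) in SFN.

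SRPK2 (chromosome 7, 105110704 to 105399308, minus strand, ENSG00000135250) was at 134, 52.4, 54.2, 55.1 and 52.9 CPM in DMSO and at 51.0, 57.2, 50, 43.6 and 46.9 CPM in SFN. DMSO replicate 1 was 2.5 times the mean of the others, and SFN replicate 2 was above those 4 libraries. The log2 fold change was -0.49 (standard error 0.26), and only -0.12 (standard error 0.09) without DMSO replicate 1. The pseudogene row SRPK2P had 27 counts in that library and at most 9 in any other. At its 3′ end SRPK2 overlaps KMT2E on the other strand by 4.32 kb, and KMT2E had means of 124 CPM in DMSO and 56.9 CPM in SFN. Counts of KMT2E ran from 663 to 4592 between libraries. The spread of KMT2E between replicates and its part in the SRPK2 values were not tested. SRPK1 made up 73.7 ± 4.43% (SD, n = 5) of the summed SRPK counts in DMSO and 74.3 ± 2.06% (SD, n = 5) in SFN, with overlapping groups, and 75.6 ± 0.611% (SD, n = 4) in DMSO without replicate 1. With all libraries, the mix of the SRPK genes thus differed by less than the spread between replicates, in contrast to that of the CLK genes. Without DMSO replicate 1, the SRPK mix differed by less than the SD in SFN but by more than the SD in DMSO.

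DYRK1A (chromosome 21, 37365573 to 37526358, plus strand, ENSG00000157540), a kinase encoded in the Down syndrome region that also phosphorylates splicing factors, was at 41.1, 49.3, 56.7, 52.4 and 57.3 CPM in DMSO and at 51.1, 34.7, 48.8, 47.8 and 60.2 CPM in SFN. The groups overlapped widely, and SFN replicates 2 and 5 were the lowest and highest of all 10 libraries. The log2 fold change was -0.08 (standard error 0.15), and it was 0.02 without SFN replicate 2.

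TRA2B (chromosome 3, 185914558 to 185938103, minus strand, ENSG00000136527), which regulates its own level through a poison exon, was at 229, 238, 202, 230 and 234 CPM in DMSO and at 182, 196, 185, 167 and 163 CPM in SFN. All SFN libraries were below all DMSO libraries, DMSO replicate 3 being the lowest of its group. The log2 fold change was -0.34 (standard error 0.10), from 227 ± 14.2 CPM (SD, n = 5) to 179 ± 13.3 CPM (SD, n = 5), and between -0.38 and -0.31 with each library left out. TRA2A (chromosome 7, 23504780 to 23532041, minus strand, ENSG00000164548), its paralog, was at 179, 93.1, 99.8, 96.7 and 89.6 CPM in DMSO and at 90.3, 95.2, 86.4, 91.4 and 79.3 CPM in SFN. Here the groups overlapped, and DMSO replicate 1 was 1.88 times the mean of the other DMSO libraries. The TRA2A log2 fold change was -0.33 (standard error 0.18), and -0.10 (standard error 0.08) without that replicate. TRA2B made up 67.5 ± 6.71% (SD, n = 5) of the summed TRA2 counts in DMSO and 66.8 ± 1.32% (SD, n = 5) in SFN, and 70.4 ± 2.45% (SD, n = 4) in DMSO without replicate 1.

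By mean CPM in DMSO, the order ran from TRA2B (227 CPM), SRPK1 (185), TRA2A (112) and CLK1 (72.0) to SRPK2 (69.8) and DYRK1A (51.4). CLK2 (28.5), CLK3 (24.6) and CLK4 (15.6) came last. The order was then compared per length, as mean CPM per kb of the canonical transcript. Libraries of 3′ ends need no such scaling, and it places genes with long transcripts, such as DYRK1A (17.0 kb), lower. In DMSO the order per length ran from TRA2A (62.5 CPM per kb), TRA2B (54.2), SRPK1 (42.5) and CLK1 (39) to SRPK2 (19.0). Then came CLK3 (13.3), CLK2 (13.2), CLK4 (6.25) and DYRK1A (3.02). CLK2 and CLK3 could not be ordered beyond their spread, and the place of TRA2A and SRPK1 rested partly on DMSO replicate 1. CLK1 was in place 4 per length and also by CPM, and without DMSO replicate 1 it was in place 3 per length, at 38.8 CPM per kb beside 38.3 for SRPK1. In SFN, CLK1 had the highest level on both scales (132 CPM per kb and 243 CPM), ahead of TRA2A (49.6 CPM per kb) and TRA2B (42.7 CPM per kb). CLK2 went from place 7 to place 8 per length, at 6.78 CPM per kb, and from place 7 to place 9 by CPM, at 14.6 CPM.

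The genes whose pattern was most like that of CLK1 were sought among 10030 other genes with a mean of at least 5 CPM, by Pearson correlation of log2 CPM over the 10 libraries. The first 5 were BAG3 (r = 0.997), a co-chaperone of HSP70, HSPA1B (r = 0.996) and HSPA1A (r = 0.995), which encode the stress-inducible HSP70, EGR1 (r = 0.996), an immediate early transcription factor, and JMJD6 (r = 0.996), an oxygenase that hydroxylates splicing proteins. BAG3 was at 118 ± 4.64 CPM (SD, n = 5) in DMSO and 673 ± 36.7 CPM (SD, n = 5) in SFN, and JMJD6 at 44 ± 2.85 and 158 ± 10.3 CPM. On the log2 scale BAG3 differed by 2.52 and JMJD6 by 1.85, each with a standard error of 0.10. These correlations rest on the gap between the treatments that all 5 genes share with CLK1, and with the group means removed r was between 0.10 for HSPA1B and 0.46 for EGR1. HSPA1A and HSPA1B are near-identical copies whose separate values are uncertain. CLK4 had r = 0.948 with CLK1 over the 10 libraries, which 168 other genes equalled or exceeded, and -0.27 with the group means removed.

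Other genes of SR protein phosphorylation were then described from 5 lists, with p-values from the edgeR fit adjusted by Benjamini-Hochberg over all genes tested. The lists too were chosen with earlier results of these data known, so their p-values and counts are given as a description. Of 72 genes tested, 7 rose and 7 fell, compared with 9.07% increased and 13.9% decreased among all genes tested. The counts given without DMSO replicate 1 are to be read against the 22.5% increased and 23.5% decreased of all genes in that fit. Of 8 related kinases, 1 fell and 0 rose (0 rose at an unadjusted p under 0.05, by DESeq2 or by limma-voom), while 1 rose and 2 fell without DMSO replicate 1. The gene that fell was DYRK2, a kinase of the DYRK family that primes substrates for degradation, from 41.2 ± 4.43 CPM (SD, n = 5) to 14.5 ± 2.53 CPM (SD, n = 5) without overlap (edgeR log2 fold change -1.5 ± 0.14 SE, with an adjusted p of 1.9e-05). DYRK1B, DYRK3, DYRK4, HIPK1, HIPK2, HIPK3 and PRPF4B had log2 fold changes between -0.29 and 0.40. SRPK3 and HIPK4 had too few counts to be tested.

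The SR proteins are the substrates of these kinases. Of 11 tested, 1 fell and 0 rose by edgeR's test (1 rose at an unadjusted p under 0.05, 1 by DESeq2 and 0 by limma-voom), and their median log2 fold change was -0.06. SRSF4 was the one that fell, with 165 ± 20.3 CPM in DMSO and 120 ± 7.62 CPM in SFN (edgeR log2 fold change -0.46 ± 0.11 SE, with an adjusted p of 0.01). Without DMSO replicate 1, 3 of the 11 SR proteins rose and 1 fell, where 22.5% of all genes rose and 23.5% fell. SRSF11 went from -0.12 (standard error 0.34) to 0.42 between these fits.

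Among 34 other splicing proteins rich in arginine and serine, 4 rose and 4 fell, with a median log2 fold change of -0.13. RSRC2 rose most, with 152 ± 12.2 CPM in DMSO and 357 ± 19.5 CPM in SFN (edgeR log2 fold change 1.23 ± 0.10 SE, with an adjusted p of 5.7e-06), followed by RBM23 (0.98, standard error 0.10) and RSRP1 (0.64, standard error 0.10). All 3 were without overlap between the groups. NKTR, a cyclophilin with such a domain, fell by 0.80 on the log2 scale (standard error 0.12), PNN, a component bound to the exon junction complex, by 0.68 (standard error 0.11) and SCAF11 by 0.46 (standard error 0.13). SCAF11 missed the threshold without SFN replicate 1 or 3. Without DMSO replicate 1, 9 of the 34 rose and 8 fell, shares near the 22.5% and 23.5% of all genes in that fit, and the median was 0.05.

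Of 7 cyclins and cyclin-dependent kinases tied to splicing, 1 rose and 1 fell, and 3 rose and 2 fell without DMSO replicate 1. CDK12, which phosphorylates the tail of RNA polymerase II, fell, with 96.0 ± 34.1 CPM in DMSO and 36.6 ± 7.96 CPM in SFN (edgeR log2 fold change -1.39 ± 0.28 SE, with an adjusted p of 0.0041). Its groups overlapped because DMSO replicate 1 was at 35.4 CPM, and without it the log2 fold change was -1.61. CCNL1, a cyclin with an RS domain, rose by 0.31 ± 0.10 SE on the log2 scale, close to the threshold (edgeR adjusted p of 0.045), and passed it in only 2 of the 10 fits with a library left out. CDK11A and CDK11B are near-identical copies, so their values were not read apart. Of 12 genes of SR protein import, dephosphorylation and SRPK control, 2 rose and 0 fell by edgeR's test (1 fell at an unadjusted p under 0.05, and 0 by DESeq2 and by limma-voom), while 4 rose and 2 fell without DMSO replicate 1. PPP1R10, a nuclear targeting subunit of protein phosphatase 1, rose without overlap (edgeR log2 fold change 1.41 ± 0.17 SE, with an adjusted p of 0.00013). Its level was 45.3 ± 10.8 CPM in DMSO and 120 ± 10.7 CPM in SFN. DMSO replicate 1 was at 26.5 CPM, and without it the DMSO mean was 49.9 ± 3.23 CPM and the log2 fold change 1.27. PPP1CC, a catalytic subunit of protein phosphatase 1, rose by less (0.26 ± 0.09 SE on the log2 scale, edgeR adjusted p of 0.047). PPP1CC passed in 3 of the 10 fits with a library left out. The SR protein importer TNPO3 had a log2 fold change of 0.09 (standard error 0.09).

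**Figure D4:**
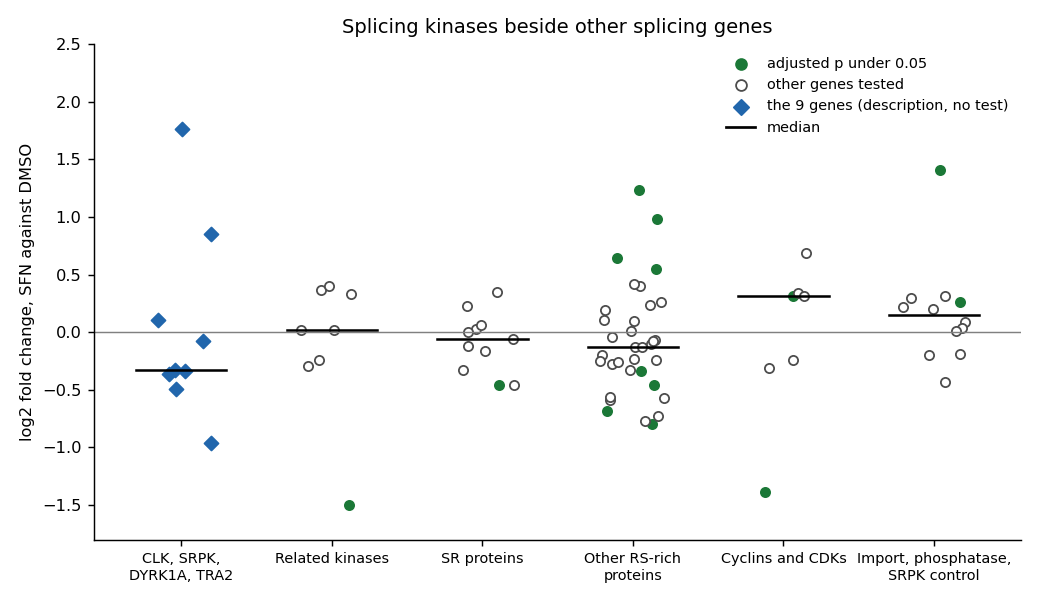
Log2 fold change of SFN against DMSO (vertical axis) for the 9 genes (diamonds, no test) and for the genes of the 5 other lists (circles, filled where the adjusted p was under 0.05), with the median of each as a line. CLK1 at 1.76 lay above every gene of the 5 lists, and DYRK2 at -1.5 and CDK12 at -1.39 lay below CLK2 at -0.96.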

How the data were processed

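The authors sequenced RNA of 5 DMSO and 5 SFN replicates of RPE-1. Per the methods, Lexogen QuantSeq reads were aligned with the Bluebee pipeline and annotated on GRCh38, and the submitters' processing notes name FastQC, STAR and featureCounts, without versions. The authors deposited raw counts per Ensembl gene, not normalized and with replicates kept separate. The labels mention only standard Illumina preparation. The annotation release and the use of strand or molecular identifiers are not given in the sources used here. The authors tested with edgeR, voomWithDreamWeights and limma. Their methods state that dependence from repeated measures was taken into account, without saying which samples it linked. The main fit here treated the libraries as independent.

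Here filterByExpr left 13378 of 28380 genes, libraries were scaled by TMM, and SFN was compared with DMSO by glmQLFit and glmQLFTest of edgeR 4.0.16 (R 4.3.3) with Benjamini-Hochberg adjustment at 0.05. Standard errors were derived from the fold change on the log2 scale and its F statistic. The method was tested on simulated counts with the same dispersion for every gene and no library that stood apart. That setting does not cover a library such as DMSO replicate 1. Log2 CPM for correlations had a prior count of 2. Total counts per library ranged from 12375860 to 20666692, and standard errors cover the spread between replicates. The labels do not say whether replicates were separate cultures, so p-values measure the spread between these samples. No 2 replicates agreed within sampling noise (chi-square per degree of freedom of at least 3.71). GENCODE 44 (GRCh38) gave positions and lengths.

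The 9 genes and the gene lists were chosen with earlier results of these data known. The genes named are the 9, the up to 3 largest called increases and decreases with a mean of at least 1 CPM in each list, pseudogene rows, genes overlapping or within 2 kb, and the 5 genes most like CLK1 with or without group means. Other list genes named were picked after their values were seen. Alternatives were DESeq2 1.42.0, limma 3.58.1 (voom, quantile normalized), 3 other scalings, 2 other filters, a replicate block and leaving out each of the 10 libraries. Each list was described by counts and its median, and no set test was run.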

Additional observations from a re-analysis of the deposited data

Results flagged for a closer look

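In 42 groups of 5 libraries (21 named genes in each treatment), the highest and lowest library were examined for standing apart, by the gap to the nearest other divided by the range of the group. A gap above 0.71 was found in 7 groups. About 2.1 would be expected by chance at 1 in 20 if the groups were independent. The groups share the same libraries, and the list genes were named for being called, so nothing is concluded from that number. In 6 of the 7 groups the library was DMSO replicate 1. It stood apart as the highest for SRPK2 (0.967), SRPK1 (0.909), TRA2A (0.885) and the splicing protein gene PNN (0.731), and as the lowest for CDK12 (0.887) and PPP1R10 (0.757). DMSO replicate 3 was the lowest for TRA2B (0.737), at 202 CPM against 229 CPM in the nearest. CLK1, CLK2, CLK3, CLK4 and DYRK1A had no such library in either group.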

How the results depend on the processing

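Over 18 alternatives the log2 fold changes were 1.67 to 1.78 for CLK1, -1.08 to -0.87 for CLK2 and 0.76 to 0.93 for CLK4, the lowest CLK1 value, 1.67, coming with library size only. These are given as values only, since the 9 genes were chosen on this contrast. Leaving out single libraries gave log2 fold changes of 1.74 to 1.78 for CLK1, -1.08 to -0.88 for CLK2, 0.04 to 0.16 for CLK3, 0.80 to 0.93 for CLK4, -0.41 to -0.22 for SRPK1, -0.58 to -0.12 for SRPK2, -0.40 to -0.10 for TRA2A and -0.38 to -0.31 for TRA2B. For DYRK1A it was -0.17 to 0.02, the positive value coming without SFN replicate 2, and the cause was not tested. The median correlation between the 9 genes with group means removed went from 0.08 to -0.04 without DMSO replicate 1. CLK1 was in place 4 in DMSO by CPM, with and without DMSO replicate 1, and per kb in place 4 with that replicate and 3 without it, a comparison added after the data were seen.

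All called genes numbered 3076, and 2383 to 6251 with a library left out, the highest without DMSO replicate 1. Of the calls 39.5% were increases with TMM and 27.5% with library size only, which shifted the median log2 fold change of all genes to -0.111. With a library left out, called genes numbered 1 to 3 of the related kinases, 1 to 4 of the SR proteins, 6 to 17 of the other RS-rich proteins, 1 to 5 of the cyclins and kinases and 1 to 6 of the import and phosphatase genes. Each highest number came without DMSO replicate 1. Called related kinases were 2 with limma-voom. Called SR proteins were 2 with library size only and 2 with DESeq2. Called cyclins and kinases were 4 with DESeq2, and 1 with library size only, upper-quartile scaling, no low-count filter or the replicate block. Called import and phosphatase genes were 1 under those same 4 settings and 1 with limma-voom.

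Replicate numbers were not taken to pair libraries, since the deviations of same-numbered libraries correlated between -0.267 and 0.484. With the replicate block, 2441 genes were called. Counts limit the precision most for CLK2 in SFN. CCNL1 passed the threshold only without DMSO replicate 1 or SFN replicate 2 among the fits with a library left out, and PPP1CC only without DMSO replicate 1 or 5 or SFN replicate 2, with adjusted p over all alternatives of 0.0056 to 0.26 and 0.00024 to 0.28.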

Other observations

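Variation within the treatments was compared between the 9 genes by removing each group mean from log2 CPM, which does not use the difference between SFN and DMSO. These are descriptions over 10 libraries that share depth and preparation. SRPK2 varied with TRA2A (r = 0.96, Spearman's rho = 0.84) and with SRPK1 (r = 0.93, rho = 0.82), and SRPK1 with TRA2A (r = 0.86, rho = 0.45). Without DMSO replicate 1 these values of r were 0.45, 0.18 and -0.59. CLK3 varied against DYRK1A both with all libraries (r = -0.94, rho = -0.79) and without that replicate (r = -0.92, rho = -0.78), and SFN replicate 2 held the highest CLK3 and the lowest DYRK1A level. CLK2 varied against SRPK2 in both cases (r = -0.88 and -0.87, rho = -0.65 and -0.70). SFN replicate 2 held the lowest CLK2 level and, DMSO replicate 1 apart, the highest SRPK2 level. CLK1 showed no value of r beyond 0.60 in either direction with another of the 9 genes when all libraries were used, and r = 0.78 with SRPK2 without DMSO replicate 1.

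Over all genes with a mean of at least 5 CPM, the 5 most like CLK1 with the group means removed were TRIM13 (r = 0.840), LGALSL (r = 0.824), MORN4 (r = 0.823), CCT6P1 (r = 0.818) and NSDHL (r = 0.816). None of these 5 was among the 5 most like CLK1 over the raw libraries. Their log2 fold changes between SFN and DMSO lay between -0.97 for LGALSL and 0.34 for CCT6P1, unlike that of CLK1.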
